A study of Mus musculus with 6 samples.

Results

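The genes described here are 49 genes of the DNA replication machinery, chosen by name for their role at the origin or at the replication fork. They comprised 15 genes of origin recognition and licensing, 6 of helicase activation, 12 of the polymerases and primase, 6 of the sliding clamp and its loader, 3 of the single-strand binding protein, 5 that join strands or untwist DNA, and 2 of ribonucleotide reductase. The array annotation mapped 94 probe sets to exactly 1 of these symbols, of 21646 probe sets tested, and each of the 49 genes had at least 1, among 11429 genes with such a probe set. Each gene was represented by its brightest probe set, the one with the highest mean over all samples, and the other probe sets are described beside it. The genes and the lists used here were chosen with earlier results of these data known.

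The series compared mouse oocytes after and before meiotic maturation, with 3 MII and 3 GV samples of 300 pooled oocytes, each labelled by a modified Affymetrix protocol and hybridised to 1 array. All mice were 22 to 24 days old and received 5 IU of eCG, a gonadotropin that makes follicles grow. MII oocytes were mature eggs arrested at metaphase of the second meiotic division, from mice that received 5 IU of hCG, an ovulatory gonadotropin, 44 to 46 hours after eCG; they were taken from the oviduct 14 hours later, freed of cumulus cells with hyaluronidase and kept if the first polar body was visible. Fully grown GV oocytes, arrested in prophase with an intact germinal vesicle, came from large antral follicles 44 to 46 hours after eCG, were freed of cumulus cells by pipetting and kept in 5 µM milrinone, an inhibitor of the oocyte phosphodiesterase that holds them at that stage. The sources used here do not give the strain. Amplification started with 10 ng of total RNA per sample and ran for 2 rounds, primed by a mixture of primers that replaced oligo(dT), so equal masses of RNA were compared and not equal numbers of cells; less RNA of a kind per oocyte and fewer cells that hold it cannot be told apart.

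In a dividing cell, the origin recognition complex (ORC) binds origins in G1. With Cdc6 and Cdt1 it loads the ring-shaped helicase Mcm2 to Mcm7 onto the DNA, a step that geminin blocks. Cdc45 and the GINS complex then activate the helicase, polymerase alpha-primase starts each strand, polymerases epsilon and delta extend the leading and lagging strands with the clamp PCNA, and RPA covers the exposed single strand. An oocyte does not replicate its DNA between the meiotic divisions, and transcription is shut off by the time it matures, so the mRNAs in the egg were made earlier; the first S phase after fertilization uses maternal products.

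Many replication genes are known targets of E2F transcription factors in dividing cells, so the sequence before the transcription start is shown for 4 licensing genes that carry a word of that type and whose mRNA calls differed. Cdc6 and Mcm6 were lower in MII, Mcm5 was higher by its brightest probe set, and Orc1 was not called. The 160 bases before the RefSeq start are given 5′ to 3′ in the direction of the gene, with words of the E2F type in capitals.
Cdc6: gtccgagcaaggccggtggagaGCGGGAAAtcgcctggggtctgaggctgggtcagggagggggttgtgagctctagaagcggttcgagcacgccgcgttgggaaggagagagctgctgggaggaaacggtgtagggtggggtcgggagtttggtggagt
Mcm6: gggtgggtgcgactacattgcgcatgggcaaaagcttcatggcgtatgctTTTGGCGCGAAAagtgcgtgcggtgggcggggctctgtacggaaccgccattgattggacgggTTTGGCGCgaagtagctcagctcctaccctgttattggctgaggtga
Mcm5: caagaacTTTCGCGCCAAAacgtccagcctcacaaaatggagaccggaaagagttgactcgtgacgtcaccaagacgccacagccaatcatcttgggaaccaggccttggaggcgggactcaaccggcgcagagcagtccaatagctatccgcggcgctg
Orc1: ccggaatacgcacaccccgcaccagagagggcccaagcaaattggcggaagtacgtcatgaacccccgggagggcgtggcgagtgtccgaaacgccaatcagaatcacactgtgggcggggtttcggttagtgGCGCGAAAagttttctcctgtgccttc

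On the RefSeq assembly GRCm38.p6 these windows are chr11:98907991-98908150 on the plus strand for Cdc6, chr1:128359706-128359865 on the minus strand for Mcm6, chr8:75109349-75109508 on the plus strand for Mcm5 and chr4:108579294-108579453 on the plus strand for Orc1. The words searched were TTTCCCGC, TTTCGCGC, TTTGCCGC and TTTGGCGC on both strands over 250 bases before the start, and overlapping matches were counted separately. Mcm6 held 3 matches, of which a pair overlapped on opposite strands, Mcm5 held 2 that overlapped in the same way, and Cdc6 and Orc1 held 1 each. RefSeq windows were at hand for 41 of the 49 genes, 51 windows in all, and 10 of the 51 (19.6%) held a word, against 611 of 32851 (1.86%) of all promoter windows. The 2 windows of Pole4 overlap and hold the same word, which is counted in both. The match is a description of letters, not of binding. By gene, a word stood before 4 of 16 genes called lower in MII (Cdc6, Mcm6, Pola1 and Rfc3), 2 of 4 called higher (Mcm5 and Pole4) and 3 of 21 not called (Mcm7, Orc1 and Orc3). Of the other words searched, CCAAT stood in 51.0% of the members' windows and 33.8% of all windows, and TTTGAA, the core of the cell cycle element CHR, in 11.8% and 16.0%.

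In MII samples 21 of the 49 genes were lower than in GV samples, 5 were higher and 23 were not called at an adjusted p under 0.05 (limma with Benjamini-Hochberg adjustment over all probe sets). The share lower, 42.9%, stood beside 37.8% of all 11429 genes called lower, and the 5 higher beside 10.5% called higher, so neither count set the replication genes apart from the rest. The fall reached 2-fold in 17 of the 49, where 23.1% of all genes fell that far. The MII and GV values did not overlap, MII lower, in 21 replication genes (43.3% of all genes) and, MII higher, in 9 (14.6% of all genes). Their median log2 difference, MII minus GV, was -0.054, against -0.20 over all genes. The size of the change varied between genes, from -4.34 for Rpa2 to 1.42 for Pold3 by their brightest probe sets. Both genes had other probe sets that differed, at -0.329 for Rpa2 and at -2.849 and -2.905 for Pold3.

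**Figure D1:**
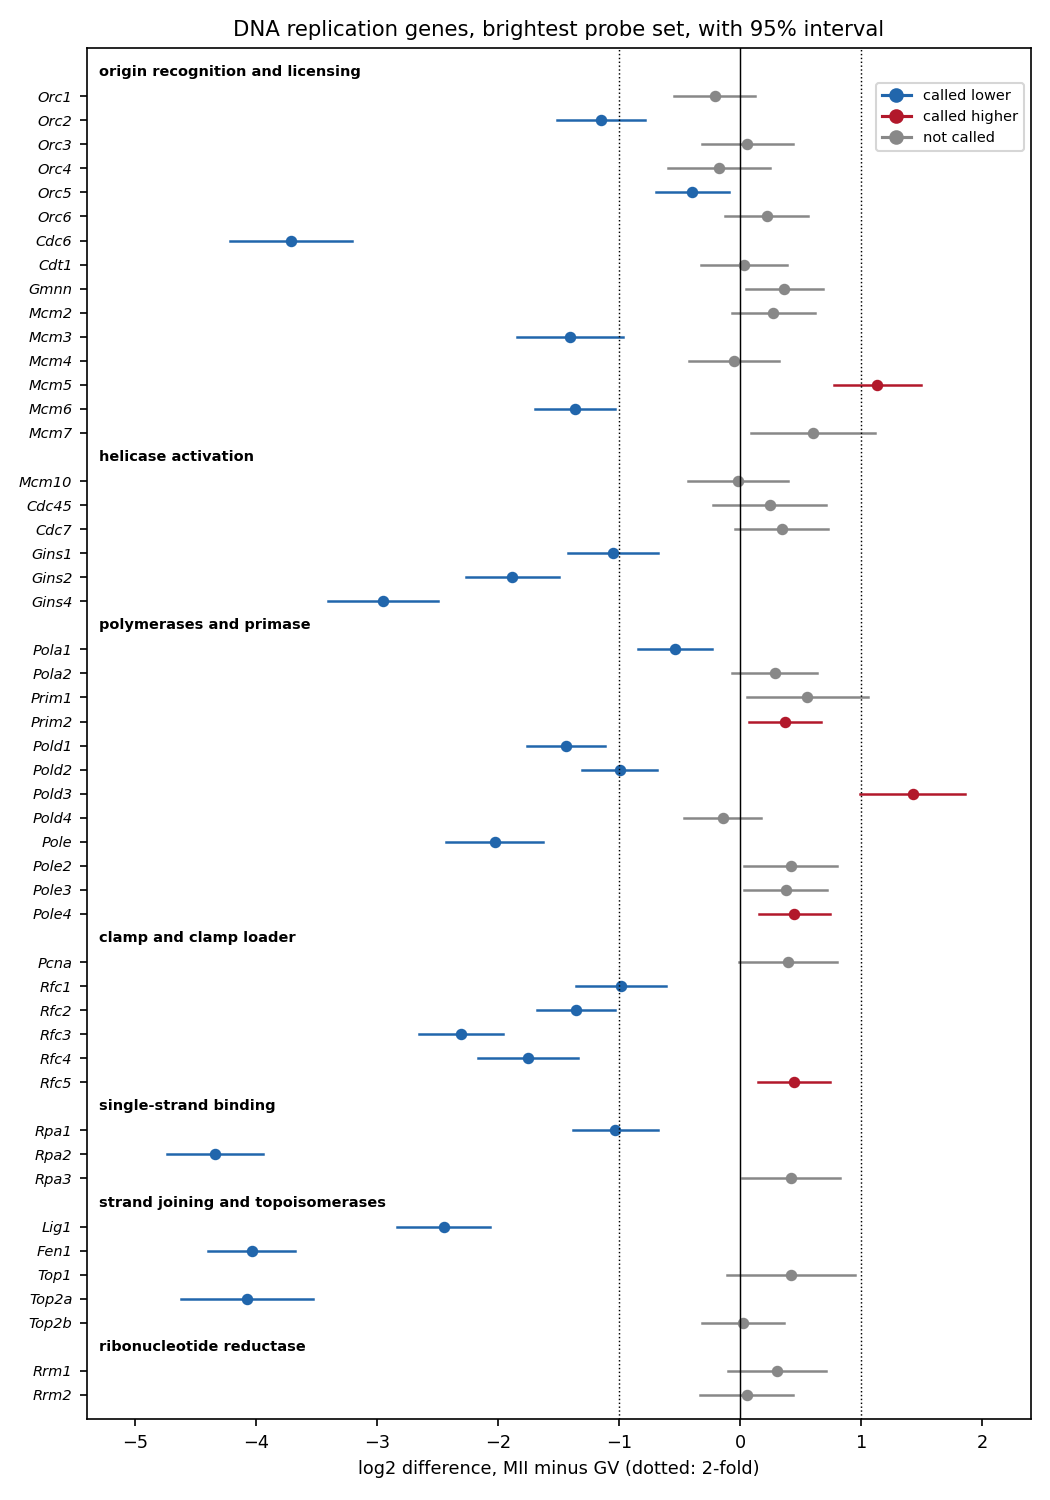
Log2 difference between MII and GV samples, MII minus GV, of the 49 DNA replication genes by their brightest probe set, in 7 functional groups; points are the limma estimates from 3 samples per stage, bars their 95% intervals, and dotted lines a 2-fold change. Cdc6, Rpa2, Fen1 and Top2a lie furthest to the left, while most of ORC, Mcm2, Mcm4 and ribonucleotide reductase lie near 0; with array medians made equal, every point moves right by 0.62.

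The scale of the arrays touches every result below. The array medians were 5.47 to 5.49 in MII and 6.10 to 6.12 in GV samples, and a scale that shifts each array by 1 amount moves all differences together. It can also change the spread between replicates. The hybridization controls averaged 9.82, 8.97 and 8.94 on the GV arrays, so making them equal moves these arrays by unequal amounts. The part of that spread in calls lost on this scale was not tested. Relative to the deposited values, the median of all differences shifted by 0.62 with array medians made equal, 0.34 with quantile normalization, -0.40 with hybridization controls made equal and -0.87 with poly-A spike controls made equal. Replication genes then came to 18 lower and 27 higher with equal medians (all genes 22.5% and 52.2%), 18 and 22 with quantile normalization (24.5% and 34.5%), 20 and 1 with equal hybridization controls (36.7% and 0.437%), and 38 and 1 with equal poly-A controls (86.5% and 0.271%). Of the 21 falls, 15 stayed called in each setting that gave them a value, while 0 of the 5 rises and 0 of the 23 genes not called kept their call in each. P-values measure the spread between 3 samples per stage. Between samples of the same stage the arrays correlated at 0.988 to 0.991 over all probe sets, and between stages at 0.885 to 0.906. All 10 oocyte markers measured had a mean over all samples above the median of all probe sets, although Figla lay below the array median in every MII sample. Of these 10, 4 were called lower in MII (Zp1, Zp2, Zp3 and Figla) and 1 higher (Bmp15). Of 12 granulosa and cumulus cell markers 7 were measured and 5 of these had a mean below the median; 4 of the 7 were called lower in MII and 0 higher, beside 37.8% and 10.5% of all genes, with a summed linear level of 249.5 to 316.3 in MII and 411.8 to 487.8 in GV samples. The 4 cumulus expansion markers measured all lay below the median and 0 were called, with sums of 30.2 to 32.4 in MII and 29.0 to 32.9 in GV. The part of somatic cells in the falls below was not tested.

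**Figure D2:**
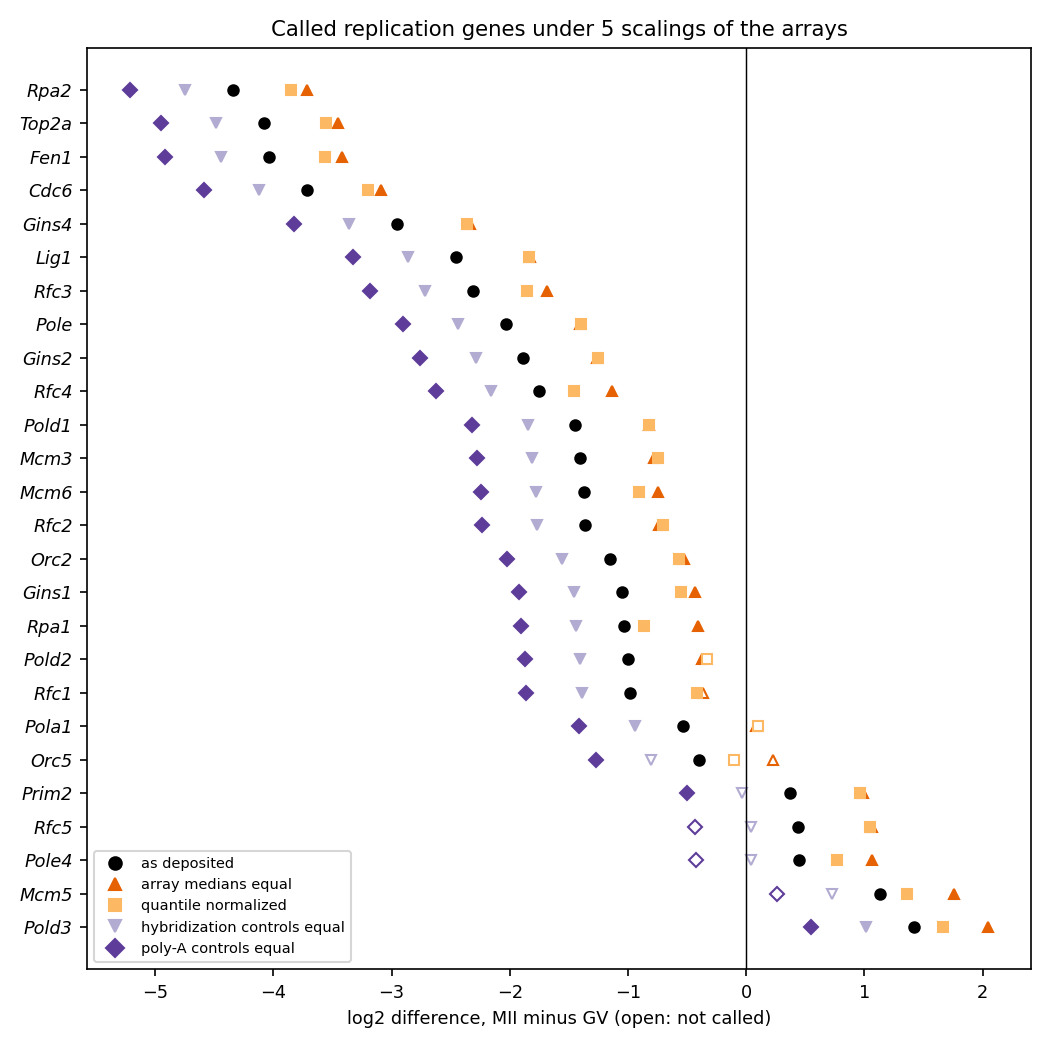
Log2 difference, MII minus GV, of the 26 replication genes called on the deposited scale, there and under the 4 other scales, with genes ordered by their deposited difference. Rpa2, Top2a, Fen1 and Cdc6 stay far below 0 on every scale drawn, while Orc5, Pola1, Prim2, Pole4 and Rfc5 lie on either side of 0 according to the scale; open symbols are differences that were not called.

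Among the licensing genes, 5 of 15 were lower in MII, 1 was higher and 9 were not called. Of all genes, 37.8% were lower and 10.5% higher. The median log2 difference of the licensing genes was -0.054. With array medians made equal 4 of them were lower and 9 higher, beside 22.5% and 52.2% of all genes. Cdc6, the ATPase that loads the Mcm rings, had log2 levels of 6.68, 5.77 and 5.83 in the MII samples, against 9.80, 9.78 and 9.84 in the GV samples. All 3 MII samples lay far below the GV samples, which lay close together. The log2 difference was -3.71 ± 0.22 (SE), a 13.1-fold fall (adjusted p = 4.9e-07). Its partner Cdt1 had 11.54, 11.53 and 11.56 in the MII samples, against 11.79, 11.49 and 11.25 in the GV samples. The stages overlapped, with the MII samples between the highest and lowest GV sample, and the difference was 0.032 ± 0.16 (adjusted p = 0.89). Geminin, Gmnn, which binds Cdt1 and blocks loading, had 9.44, 9.60 and 9.40 in the MII samples, against 9.07, 9.29 and 9.00 in the GV samples. Every MII sample lay above every GV sample, but the difference of 0.36 ± 0.14 did not pass the test (adjusted p = 0.064).

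The 6 Mcm subunits of the helicase ring, which act in 1 complex, came to 2 lower in MII, 1 higher and 3 not called. The shares over all genes were 37.8% lower and 10.5% higher. Mcm3 had 5.78, 6.30 and 6.30 in the MII samples, against 7.23, 7.60 and 7.76 in the GV samples, and Mcm6 had 8.12, 8.33 and 8.14 in the MII samples, against 9.77, 9.42 and 9.51 in the GV samples. In both the stages were well apart, with falls of -1.41 ± 0.20 (adjusted p = 0.00019) and -1.37 ± 0.15 (adjusted p = 3e-05). Mcm5, by contrast, had 11.67, 11.89 and 11.60 in the MII samples, against 10.50, 10.43 and 10.84 in the GV samples by its brightest probe set. All MII samples were higher, by 1.13 ± 0.16 (adjusted p = 0.00021). The difference was 0.73 with equal hybridization controls (adjusted p = 0.12) and 0.26 with equal poly-A controls (adjusted p = 0.31), so the call was lost on both. The rise was opposed by the other probe set of the gene, which fell. Mcm2 (0.27), Mcm4 (-0.054) and Mcm7 (0.60, adjusted p = 0.056) were not called by their brightest probe sets. Of the ORC subunits, Orc2 fell by 1.15 ± 0.16 (adjusted p = 0.00021) and Orc5 by 0.40 ± 0.14 (adjusted p = 0.036). The fall of Orc2 was opposed by its second probe set, which was higher (1.53, adjusted p = 0.0011). With the mean over its probe sets Orc2 was not called (-0.21). The call of Orc5 was lost with equal hybridization controls, with quantile normalization and when GV replicate 1, GV replicate 2, MII replicate 1 or MII replicate 2 was left out, and its difference was 0.23 with equal array medians. Orc1 (-0.21), Orc3 (0.056), Orc4 (-0.18) and Orc6 (0.22) were not called. A test against bounds of 2-fold placed 9 of the 15 licensing genes within them, namely Orc1, Orc3, Orc4, Orc5, Orc6, Cdt1, Gmnn, Mcm2 and Mcm4. Of all genes tested against these bounds, 55.2% lay within them.

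**Figure D3:**
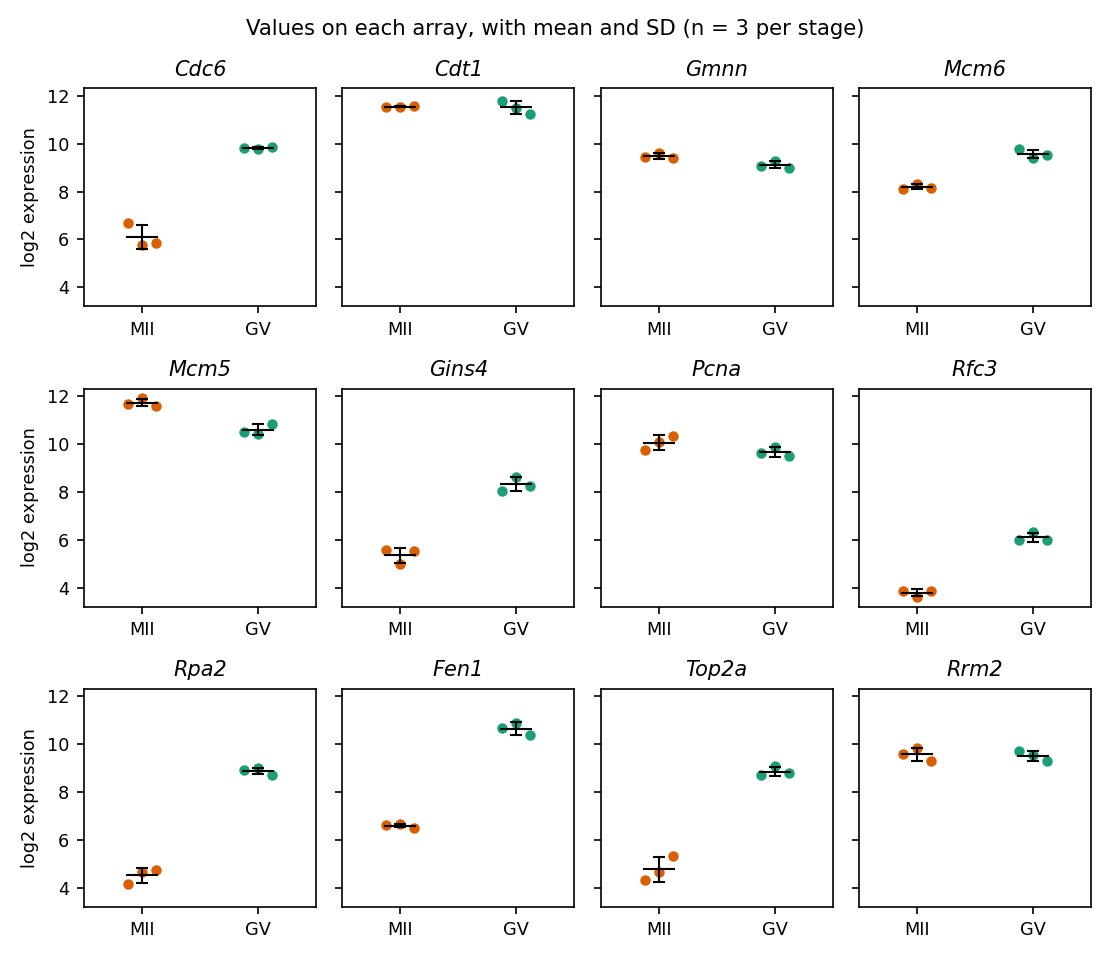
Log2 level of 12 of the replication genes, by their brightest probe set; each point is 1 sample of 300 oocytes, MII left of GV in each panel, with the mean and SD in black. Cdc6, Gins4, Rpa2, Fen1 and Top2a have no overlap between stages and a wide gap, while the Cdt1 and Rrm2 samples overlap.

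In helicase activation the calls differed between genes. The 3 GINS subunits measured as members, Gins1, Gins2 and Gins4, were all lower in MII on every scale tried. Gins3, the GINS subunit outside the members, was lower on the deposited scale (-0.54). It was not called with equal array medians (0.087) or quantile normalization (0.13). The other 3 members were not called on the deposited scale. On the deposited scale 37.8% of all genes were lower. Gins4 had 5.55, 4.98 and 5.52 in the MII samples, against 8.05, 8.62 and 8.26 in the GV samples, a difference of -2.96 ± 0.20 or 7.76-fold (adjusted p = 1.2e-06). Gins2 had 6.01, 6.50 and 6.13 in the MII samples, against 8.08, 8.30 and 7.90 in the GV samples, a difference of -1.88 ± 0.17 (adjusted p = 9.4e-06). Gins1 fell less, with 8.35, 7.92 and 8.39 in the MII samples, against 9.24, 9.43 and 9.15 in the GV samples (-1.05 ± 0.17, adjusted p = 0.00048). In all 3 genes the lowest GV sample was above the highest MII sample. Mcm10, which recruits polymerase alpha (-0.024), Cdc45, the partner of GINS in the active helicase (0.24), and Cdc7, the kinase that fires origins (0.34), each overlapped between stages and lay within 2-fold by the test against bounds. The difference between GINS and Cdc45 itself was not tested. The median of the 6 genes was -0.54, and 0.086 with array medians made equal.

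For polymerases and primase, 4 of 12 genes were lower in MII, 3 higher and 5 not called. Of all genes, 37.8% were lower and 10.5% higher. The median of the 12 was 0.33, and it was -0.37 with the mean over probe sets, -0.079 with equal hybridization controls and -0.55 with equal poly-A controls. The 4 falls took in the catalytic subunits of polymerases alpha, delta and epsilon. Pole, the catalytic subunit of polymerase epsilon, had 5.63, 5.19 and 5.62 in the MII samples, against 7.31, 7.77 and 7.46 in the GV samples. Pold1, the catalytic subunit of polymerase delta, had 5.04, 5.02 and 5.35 in the MII samples, against 6.63, 6.62 and 6.50 in the GV samples. Neither gene overlapped between stages. The log2 differences were -2.03 ± 0.18 (adjusted p = 6.7e-06) for Pole and -1.44 ± 0.14 (adjusted p = 1.7e-05) for Pold1. The MII values of Pold1 lay below the array median, so its fall by this probe set was at least 2.72-fold on the deposited scale. The second probe set of Pold1 gave -0.49. Pold2, the second subunit of delta, had 6.20, 6.35 and 6.09 in the MII samples, against 7.24, 7.29 and 7.11 in the GV samples, again without overlap, and fell by 1.00 ± 0.14 (adjusted p = 0.00019, lost with quantile normalization at 0.063). Pola1, the catalytic subunit of polymerase alpha, fell by 0.54 ± 0.14 (adjusted p = 0.009), and its difference was 0.085 with equal array medians and 0.10 with quantile normalization.

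By the brightest probe sets, the rises were in accessory subunits and were small apart from Pold3. With the mean over probe sets the difference was -1.44 for Pold3 and -0.21 for Pole4, whose dimmer probe set was called lower (-0.86, adjusted p = 0.0027). Pold3, which links polymerase delta to PCNA, had 11.47, 11.47 and 11.45 in the MII samples, against 10.01, 9.65 and 10.46 in the GV samples by its brightest probe set. The MII samples were nearly identical and above all GV samples, which were more spread, and the difference was 1.42 ± 0.20 (adjusted p = 0.00018), while 2 other probe sets of Pold3 fell. Pole4, a small histone-fold subunit of polymerase epsilon, had 10.43, 10.54 and 10.37 in the MII samples, against 9.97, 10.07 and 9.97 in the GV samples. Its MII samples were all above the GV samples, with a difference of 0.44 ± 0.13 (adjusted p = 0.019), a call that was lost when GV replicate 3 or MII replicate 2 was left out and with equal hybridization controls; the difference was -0.43 with equal poly-A controls. Prim2, the large primase subunit, had 8.12, 8.27 and 8.22 in the MII samples, against 7.94, 7.77 and 7.80 in the GV samples, also without overlap. Its difference was 0.37 ± 0.13 (adjusted p = 0.044), and the call was lost without any 1 of GV replicates 2 and 3 and MII replicates 1, 2 and 3, and the difference was -0.036 and -0.50 with equal hybridization and poly-A controls. Prim1, the catalytic primase subunit (0.55, adjusted p = 0.069), Pole2 (0.42) and Pole3 (0.37) had MII samples above all GV samples without passing the test. The second probe set of Prim1 was called lower (-3.45, adjusted p = 3.6e-07). Pola2 (0.28) and Pold4 (-0.15) were not called, and Pold4 lay below the array median in both stages.

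The clamp was not called, while 4 of the 5 subunits of its loader were lower in MII. The share of all genes called lower was 37.8%. The difference between clamp and loader was not tested. Pcna, the sliding clamp, had 9.74, 10.08 and 10.34 in the MII samples, against 9.61, 9.87 and 9.50 in the GV samples. The lowest MII sample lay within the GV range, and the difference of 0.39 ± 0.18 did not pass the test (adjusted p = 0.11), although it lay within 2-fold by the test against bounds. The clamp loader RFC, whose 5 subunits open the PCNA ring, had a median subunit difference of -1.36. Rfc3 had 3.87, 3.63 and 3.88 in the MII samples, against 5.98, 6.33 and 5.995 in the GV samples. Rfc4 had 3.05, 3.02 and 3.27 in the MII samples, against 4.57, 4.79 and 5.24 in the GV samples. All MII values of both genes lay below every GV value and below the array median. The differences were -2.31 ± 0.15 (adjusted p = 9.6e-07) and -1.76 ± 0.19 (adjusted p = 2.6e-05). On the deposited scale the falls were thus at least 4.96-fold and 3.38-fold. Over the alternatives run, the smallest differences were -1.69 for Rfc3 and -1.13 for Rfc4. The GV values of Rfc4 also lay below their array medians, as did the GV values 5.98 and 5.995 of Rfc3. Rfc2 had 6.55, 6.67 and 6.53 in the MII samples, against 8.03, 8.07 and 7.73 in the GV samples, a fall of 1.36 ± 0.15 (adjusted p = 2.7e-05). Rfc1, the large subunit, fell by 0.99 ± 0.17 (adjusted p = 0.00075), a call lost with equal array medians and opposed by its 2 other probe sets. Rfc5 alone among the 5 was called higher, with 7.90, 7.93 and 8.10 in the MII samples, against 7.48, 7.61 and 7.50 in the GV samples. Its stages did not overlap, but the difference of 0.44 ± 0.13 (adjusted p = 0.021) lost its call when GV replicate 1, GV replicate 3 or MII replicate 3 was left out and with equal hybridization controls, and it was -0.43 with equal poly-A controls.

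RPA, the trimer that coats single-stranded DNA, gave the largest fall of all 49 genes by their brightest probe sets. Rpa2, its middle subunit, had 4.18, 4.67 and 4.76 in the MII samples, against 8.90, 9.01 and 8.72 in the GV samples. MII samples lay far below every GV sample and below the array median. By this probe set and on the deposited scale the difference was -4.34 ± 0.18 or at least 20.3-fold (adjusted p = 5e-08). The second probe set of Rpa2 was not called (-0.33) and lay within 2-fold by the test against bounds. It was dimmer over all samples but brighter in MII, with a mean of 5.945 against 4.535 for the brightest. The fall of Rpa2 thus rests on 1 of its probe sets. Rpa1, the large DNA-binding subunit, had 10.71, 11.07 and 10.92 in the MII samples, against 11.83, 12.14 and 11.82 in the GV samples. It fell by 1.03 ± 0.16 without overlap (adjusted p = 0.00035). Rpa3, the smallest subunit, was not called (0.42, adjusted p = 0.09) and lay within 2-fold.

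Of the 5 genes that join strands or untwist DNA, 3 were lower in MII and 2 were not called. Of all genes, 37.8% were lower. The 3 falls were among the largest seen, for a group median of -2.45. Without probe sets of the types that can match several transcripts, the median was -0.15 and 1 of the 4 genes with a value was lower. In that setting Fen1 had no value, and Top2a was read by a dimmer probe set. Its means were 3.84 in MII and 4.17 in GV, below the array medians of both stages. Fen1, the nuclease that trims the flap of each Okazaki fragment, had 6.64, 6.65 and 6.52 in the MII samples, against 10.69, 10.87 and 10.36 in the GV samples. Lig1, the ligase that seals the trimmed fragments, had 5.81, 6.29 and 6.12 in the MII samples, against 8.60, 8.68 and 8.30 in the GV samples. Top2a, the topoisomerase of dividing cells, had 4.31, 4.67 and 5.35 in the MII samples, against 8.70, 9.09 and 8.77 in the GV samples. In none of the 3 did the stages come near each other. On the deposited scale the differences were -4.04 ± 0.16 for Fen1 (16.5-fold, adjusted p = 4.2e-08), -2.45 ± 0.17 for Lig1 (5.48-fold, adjusted p = 1.3e-06) and -4.08 ± 0.24 for Top2a (at least 16.9-fold, adjusted p = 4.5e-07). A dimmer probe set of Top2a was not called (-0.32). Top1, the topoisomerase that nicks 1 strand (0.42, adjusted p = 0.19), and Top2b, which is not tied to division (0.021), were not called and lay within 2-fold.

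Ribonucleotide reductase makes the deoxynucleotides, and neither of its subunits was called. Rrm2, the small subunit, had 9.57, 9.82 and 9.31 in the MII samples, against 9.71, 9.53 and 9.31 in the GV samples. The stages overlapped almost fully, with a difference of 0.051 ± 0.17 (adjusted p = 0.84). Rrm1, the large subunit, differed by 0.30 ± 0.18 (adjusted p = 0.21). Both lay within 2-fold by the test against bounds, as did 25 of the 46 replication genes bright enough for that test, beside 55.2% of all genes tested; with bounds of 1.5-fold 0 of the 46 passed. Of these 25 genes, 20 were not called and 5 (Orc5, Pola1, Prim2, Pole4 and Rfc5) were called different as well, at a small size.

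Probe sets of the same gene did not always move together. Several probe sets existed for 31 of the 49 genes, at most 4, and the 94 probe sets came to 41 lower in MII, 12 higher and 41 not called, beside 34.1% lower and 10.9% higher of all probe sets. In 12 of the 31 the 2 brightest probe sets changed by unequal amounts (limma on their within-array difference, adjusted p under 0.05), beside 43.5% of all genes with several. Probe sets called in opposite directions occurred in 5 of the 31 (Mcm5, Orc2, Pold3, Pole4 and Rfc1), beside 10.8% of all genes with several. In 8 genes (Fen1, Gins1, Gins2, Pold1, Rfc2, Rfc3, Rfc4 and Rpa1) every probe set was lower, and in 8 (Cdc7, Cdt1, Mcm4, Orc3, Pola2, Rrm1, Rrm2 and Top2b) none was called.

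**Figure D4:**
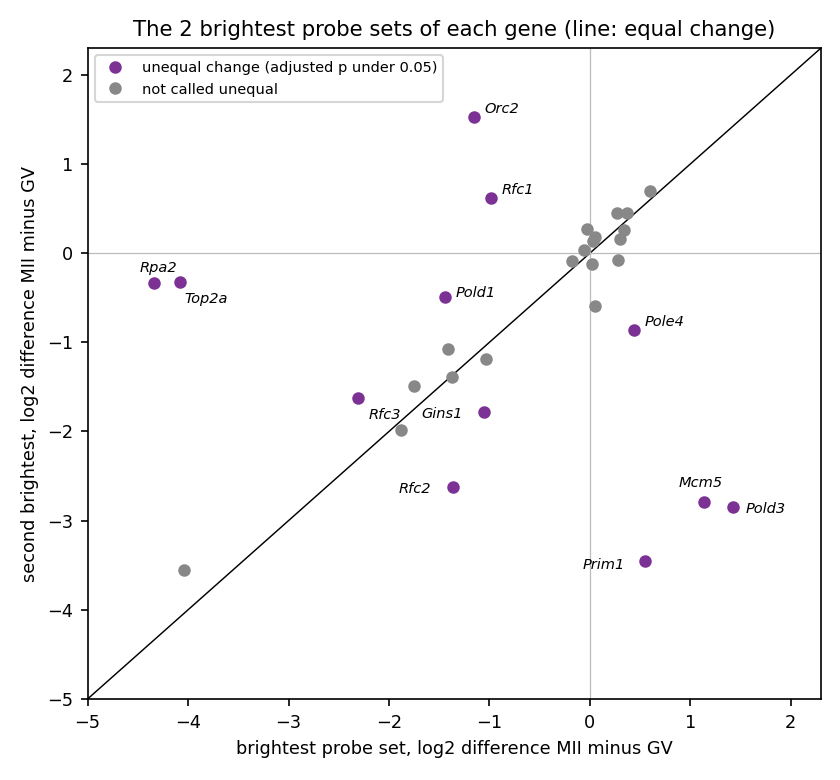
Log2 difference, MII minus GV, of the second brightest probe set against that of the brightest for the 31 replication genes with several probe sets; the diagonal marks an equal change and purple points are pairs called unequal. Mcm5, Pold3 and Prim1 lie at the lower right, where the second probe set fell steeply while the brightest did not fall.

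In Mcm5, Pold3 and Prim1 another probe set fell steeply. The second probe set of Mcm5 had 7.87, 8.13 and 8.12 in the MII samples, against 10.81, 10.85 and 10.84 in the GV samples, a fall of 2.79 ± 0.14 (adjusted p = 1.3e-07). Its MII samples all lay below its GV samples, the reverse of the brightest probe set, and the difference between the 2 changes was 3.92 ± 0.19 (adjusted p = 2.3e-06). The second probe set of Pold3 had 7.78, 7.67 and 7.48 in the MII samples, against 10.65, 10.55 and 10.28 in the GV samples, and the dimmest fell likewise (-2.91, adjusted p = 3.1e-06). Again the MII samples lay below the GV samples where the brightest probe set had them above, with a difference between the changes of 4.27 ± 0.28 (adjusted p = 7e-06). The second probe set of Prim1 had 4.19, 4.36 and 4.24 in the MII samples, against 8.07, 7.26 and 7.82 in the GV samples. That was a fall of 3.45 ± 0.20 (adjusted p = 3.6e-07) in a gene whose brightest probe set was not called. The MII values of the second probe set lay below the array median, so on the deposited scale its fall was at least 11.0-fold. With the mean over all probe sets of a gene, the difference was -0.83 for Mcm5, -1.44 for Pold3, -1.45 for Prim1 and -0.21 for Pole4, so the direction of these 4 genes rests on which probe set is read. The transcript stretch that each probe set covers was not analysed here.

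Further disagreements occurred in Orc2, Rfc1, Pole4, Rpa2 and Top2a. Orc2 had a second probe set that was higher in MII (1.53, adjusted p = 0.0011) and a dimmer one that was lower (-1.01, adjusted p = 0.00012), and with the mean over its 3 probe sets the fall was not called. Rfc1 had 2 further probe sets that were both higher (0.61, adjusted p = 0.0089 and 1.03, adjusted p = 0.0095), and its mean over probe sets was 0.22. Pole4 had a dimmer probe set that was lower (-0.86, adjusted p = 0.0027). For Rpa2 the second probe set, not called at an adjusted p of 0.28, had 6.35, 5.88 and 5.61 in the MII samples, against 5.90, 6.31 and 6.61 in the GV samples, and the stages overlapped. The difference between the changes of its 2 probe sets, brightest minus second, was -4.01 ± 0.36 (limma, adjusted p = 2.9e-05). Likewise the second probe set of Top2a was not called (-0.32, adjusted p = 0.18) and lay below the array median in every sample. The difference between the changes of Top2a was -3.75 ± 0.36 (limma, adjusted p = 4.7e-05). Top2a is thus called by 1 probe set, of a type that can match several transcripts.

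In the other genes with several probe sets the readings differed less, or in genes that were dim. Mcm2 had a second probe set called higher (0.45, adjusted p = 0.025), as did Mcm7 in the next 2 (0.70, adjusted p = 0.019 and 0.65, adjusted p = 0.016) but not in the dimmest (0.50), and Mcm10 in its dimmest (0.50, adjusted p = 0.016) but not in the middle one (0.28). The replicate values of Mcm7 showed GV replicate 1 above the other GV samples in all 4 probe sets. The hybridization controls of that array averaged 9.82, against 8.97 and 8.94 on the other GV arrays and 9.42 to 9.86 on the MII arrays, and their part in the high values was not tested. Mcm3 fell in its next 2 probe sets (-1.08 and -1.23, the dimmer of them below the array median in MII) and not in its dimmest (-0.096). Mcm6 also fell in its second (-1.39), with the dimmest not called (-0.32). Orc4, not called by its brightest or second (-0.088), was lower in its 2 dimmer ones (-2.16, adjusted p = 1.2e-06 and -1.21, adjusted p = 0.00045), both below the array median in MII.

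Among the falls, the second probe sets gave -1.78 for Gins1, -1.99 for Gins2, -0.49 for Pold1, -1.62 for Rfc3, -1.49 for Rfc4, -1.19 for Rpa1 and -3.56 for Fen1, and the 2 dimmer ones of Rfc2 gave -2.62 and -2.32, all called lower. Apart from that of Rpa1, each of these lay below the array median in every MII sample. On the deposited scale the values are thus lower bounds of the fall. Without calls were the further probe sets of Orc3 (-0.59), Cdt1 (0.13), Mcm4 (0.038), Cdc7 (0.26), Pola2 (-0.076), Prim2 (0.45), Top2b (-0.12 and 0.26), Rrm1 (0.16) and Rrm2 (0.19 and 0.21). For Cdc6, Mcm7, Cdc7, Pole and Fen1 every probe set was of a type that can match several transcripts, so these genes have no reading without that type.

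Averaged over genes on the deposited scale, MII samples lay below GV samples in every group but ribonucleotide reductase. The mean log2 level of the 49 genes was 7.95, 8.00 and 8.01 in the MII samples, against 8.67, 8.71 and 8.59 in the GV samples, with no overlap. For single-strand binding it was 7.54, 7.89 and 7.98 in MII, against 9.36, 9.66 and 9.34 in GV, and for joining and topoisomerases 6.86, 7.07 and 7.10 in MII, against 9.14, 9.09 and 8.89 in GV. Polymerases and primase lay closest, at 7.72, 7.70 and 7.72 in MII, against 7.79, 7.85 and 7.83 in GV. The median difference of that group had the other sign (0.325). Ribonucleotide reductase overlapped between stages, at 9.67, 9.68 and 9.43 in MII, against 9.53, 9.25 and 9.47 in GV. These means use the deposited scale, on which the array medians themselves differed between stages by 0.62.

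A wider list of 48 other genes around replication, of which 44 were measured, gave 20 lower in MII, 3 higher and 21 not called, with a median of -0.33 against -0.20 over all genes; of all genes 37.8% were called lower and 10.5% higher. Its largest fall was that of Dscc1, a subunit of an alternative clamp loader, with 2.96, 2.88 and 2.45 in the MII samples, against 7.70, 7.61 and 7.70 in the GV samples. Below the array median in every MII sample, it was at least 30.0-fold lower on the deposited scale (adjusted p = 2.2e-08). With equal array medians the difference of Dscc1 was -4.28. Rnaseh2a, the catalytic subunit of the enzyme that removes ribonucleotides from DNA, differed by -3.66 ± 0.17 (adjusted p = 9.9e-08). Its MII values too lay below the array median, so this is a lower bound of its fall on the deposited scale. Topbp1, which helps to activate the helicase and the checkpoint, differed by -3.61 ± 0.24 (adjusted p = 8.4e-07). The 3 rises were those of Ccna2, cyclin A2 (0.67 ± 0.16, adjusted p = 0.0072), the nuclease Dna2 (0.41 ± 0.14, adjusted p = 0.034) and Slbp, which binds histone mRNAs (0.40 ± 0.14, adjusted p = 0.039). With equal hybridization controls these 3 were not called, and with equal poly-A controls they differed by -0.20, -0.47 and -0.47. Gins3, the remaining GINS subunit, was lower on the deposited scale (-0.54 ± 0.13, adjusted p = 0.0073), but its difference was 0.087 with equal array medians and 0.13 with quantile normalization, and neither was called. Dbf4, the partner of Cdc7, was not called (0.30 ± 0.13, adjusted p = 0.1).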

How the data were processed

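Expression was measured in 3 MII and 3 GV samples on 1 array each. The values deposited by the authors are on the log2 scale; RMA and affy, an R package, are named per the submitters' processing notes. The sources used here give no background correction, filter or build. Of 21702 probe sets, 56 controls were set aside and 21646 tested. The number of arrays limits the precision.

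MII minus GV was fitted with limma 3.58.1 under R 4.3.3 (lmFit, eBayes, stage only, 2-sided, Benjamini-Hochberg over all tested probe sets, threshold 0.05), and checked on simulated data. Bounds of 2-fold were tested with 2 one-sided tests over probe sets with a mean above the median. Promoter windows came from RefSeq, GRCm38.p6. Differences are printed as measured. Where all MII values of a fall lay below the array median, the difference and fold are given as lower bounds of the fall. Signal over background is not known there. Each such bound is a point estimate on the deposited scale for the probe set read. It does not take in the sampling error, which the SE gives, or other scales and probe sets, where the difference can be smaller. The members and lists were chosen with earlier results of these data known. Every member is named; values per sample are given in each functional group for up to 3 called falls and 3 called rises with the largest difference, or the member with the highest mean, and for Cdc6, Cdt1, Gmnn, Pcna and Top2a. Alternatives covered scale, filter, moderation, replicate number, single arrays and the probe set read.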

Additional observations from a re-analysis of the deposited data

How the results depend on the processing

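The number of arrays limits what can be called, and probe sets near the array median have no known signal over background. The replication genes called lower numbered 18 to 21 in the settings run other than 17 without the several-transcript types, 23 with the mean over probe sets and 38 with equal poly-A controls; those called higher numbered 27 with equal array medians, 22 with quantile normalization, 1 with equal hybridization controls and 1 with equal poly-A controls, and 2 (without GV replicate 3) to 7 (without GV replicate 1) leaving out 1 array. Of all probe sets, 7376 were called lower and 2358 higher, against 4306 and 12016 with equal medians, 4794 and 7538 with quantile normalization, 104 higher with equal hybridization controls and 18380 and 65 with equal poly-A controls; 1279 were higher without variance moderation and 1547 to 2127 leaving out 1 array. Within 2-fold were 10 replication genes with equal medians, 13 with quantile normalization, 0 with equal hybridization controls, 3 with equal poly-A controls and 0 with bounds of 1.5-fold. With the replicate number as a replicate block 20 replication genes were lower, 5 higher and 26 within 2-fold, Orc5 and Prim2 lost their calls and Prim1 was called higher; deviations of same-numbered samples correlated at 0.091, 0.029 and 0.027, so the numbers were not taken to pair the samples. Group medians of the log2 difference were with equal array medians 0.57 (all members), 0.57 (origin recognition and licensing), 0.086 (helicase activation), 0.95 (polymerases and primase), -0.55 (clamp and clamp loader), -0.41 (single-strand binding), -1.83 (strand joining and topoisomerases) and 0.80 (ribonucleotide reductase); with equal hybridization controls -0.46 (all members), -0.46 (origin recognition and licensing), -0.94 (helicase activation), -0.079 (polymerases and primase), -1.58 (clamp and clamp loader), -1.44 (single-strand binding), -2.86 (strand joining and topoisomerases) and -0.23 (ribonucleotide reductase); with equal poly-A controls -0.93 (all members), -0.93 (origin recognition and licensing), -1.41 (helicase activation), -0.55 (polymerases and primase), -2.05 (clamp and clamp loader), -1.91 (single-strand binding), -3.33 (strand joining and topoisomerases) and -0.70 (ribonucleotide reductase); with quantile normalization 0.28 (all members), 0.25 (origin recognition and licensing), -0.13 (helicase activation), 0.83 (polymerases and primase), -0.56 (clamp and clamp loader), -1.84 (strand joining and topoisomerases) and 0.57 (ribonucleotide reductase); with a filter on low values 0.37 (polymerases and primase) and -0.99 (clamp and clamp loader); with the mean over probe sets -0.21 (all members), -0.21 (origin recognition and licensing), -0.37 (polymerases and primase), -0.70 (clamp and clamp loader) and -2.20 (strand joining and topoisomerases); with no probe sets of the several-transcript types 0.030 (all members), 0.038 (origin recognition and licensing), -1.05 (helicase activation), 0.37 (polymerases and primase) and -0.15 (strand joining and topoisomerases). Leaving out 1 array they ranged over -0.11 to 0.018 (all members), -0.16 to 0.047 (origin recognition and licensing), -0.66 to -0.47 (helicase activation), 0.23 to 0.34 (polymerases and primase), -1.28 to -1.10 (clamp and clamp loader) and -2.57 to -2.32 (strand joining and topoisomerases). With equal array medians, these log2 differences had the other sign: 0.41 for Orc1, 0.45 for Orc4, 0.23 for Orc5, 0.57 for Mcm4, 0.60 for Mcm10, 0.085 for Pola1 and 0.48 for Pold4. With equal hybridization controls, these log2 differences had the other sign: -0.35 for Orc3, -0.19 for Orc6, -0.37 for Cdt1, -0.044 for Gmnn, -0.13 for Mcm2, -0.16 for Cdc45, -0.064 for Cdc7, -0.12 for Pola2, -0.036 for Prim2, -0.031 for Pole3, -0.013 for Pcna, -0.38 for Top2b, -0.10 for Rrm1 and -0.35 for Rrm2. With equal poly-A controls, these log2 differences had the other sign: -0.82 for Orc3, -0.66 for Orc6, -0.84 for Cdt1, -0.51 for Gmnn, -0.60 for Mcm2, -0.27 for Mcm7, -0.63 for Cdc45, -0.53 for Cdc7, -0.59 for Pola2, -0.32 for Prim1, -0.50 for Prim2, -0.46 for Pole2, -0.50 for Pole3, -0.43 for Pole4, -0.48 for Pcna, -0.43 for Rfc5, -0.45 for Rpa3, -0.46 for Top1, -0.85 for Top2b, -0.57 for Rrm1 and -0.82 for Rrm2. With quantile normalization, these log2 differences had the other sign: 0.38 for Orc1, 0.25 for Orc4, 0.24 for Mcm4, 0.29 for Mcm10, 0.10 for Pola1 and 0.28 for Pold4. With the mean over probe sets, these log2 differences had the other sign: -0.27 for Orc3, -0.83 for Mcm5, 0.25 for Mcm10, -1.45 for Prim1, -1.44 for Pold3, -0.21 for Pole4 and 0.22 for Rfc1. With no probe sets of the several-transcript types, these log2 differences had the other sign: 0.038 for Mcm4 and 0.28 for Mcm10. Leaving out 1 array, the difference ranged from -0.097 to 0.16 for Orc3, -0.097 to 0.17 for Cdt1, -0.20 to 0.047 for Mcm4, -0.20 to 0.17 for Mcm10, -0.090 to 0.11 for Top2b and -0.076 to 0.18 for Rrm2. The cause of these changes beyond the common shift of each scale was not tested.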
